A study of Mus musculus with 14 samples.

Results

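Iron and heme handling was followed in macrophages through 9 genes, chosen by name: Hmox1, Fth1, Ftl1, Tfrc, Slc40a1, Slc11a1, Slc11a2, Ireb2 and Ncoa4. All 9 were found among the 25239 gene symbols of the count table, and all 9 passed the filter on low counts. The 14 RNA libraries came from mouse macrophages of bone marrow origin, grown out of marrow for 7 to 10 days with 20% L929 cell medium, 10% fetal bovine serum and 5% horse serum. The KO mice were Ezh2 fl/fl;LysM-Cre+/-, in which Cre under the lysozyme M promoter removes the floxed part of Ezh2 in myeloid cells. The WT mice were their littermate controls. Cells spent 24 h either in control medium (DMEM complete medium) or in CM, which is medium taken from Hepa1-6, a hepatoma line of the mouse. There were 4 libraries of WT in control medium, 4 of WT in CM, 3 of KO in control medium and 3 of KO in CM. Medium conditioned by other cells was not among the groups, the genotype of the littermates beyond WT is not given, nor is whether libraries of a group came from separate mice. The p-values therefore measure the spread between these libraries, which may be technical.

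Macrophages that clear old red cells open heme with heme oxygenase 1 (Hmox1), move the iron into the cytosol, store it in the ferritin shell made of heavy (Fth1) and light (Ftl1) chains, or pass it out of the cell through ferroportin (Slc40a1), the only known iron exporter of mammals. Iron enters on transferrin through the transferrin receptor (Tfrc), crosses the membrane of endosomes and phagosomes through Slc11a2 (DMT1) and Slc11a1 (NRAMP1), and is taken back from ferritin by the autophagy receptor Ncoa4. The iron regulatory proteins, of which Ireb2 encodes IRP2, bind a hairpin in several of these mRNAs, the iron-responsive element. Bound before the coding sequence the proteins hold back translation, and bound after it they protect the mRNA from decay. RNA levels show neither protein amounts nor translation.

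The hairpins are shown because they are the shared regulatory feature that splits the 9 genes. They were found in the GENCODE M21 transcripts on GRCm38 by a pattern of 27 bases: a lower stem of 5 bases on each side with at least 4 of them paired, a bulged C, an upper stem of 5 pairs and the loop CAGTGN, in which the last base was not G. The search covered the sense strand only. The capitals mark the bulged C and the 6 loop bases, and each is written 5′ to 3′ on the strand of its gene. The pattern occurred in 36 of 58797 protein-coding transcripts (0.0612%) and in 24 of 21877 genes (0.11%). A pattern of 28 bases that allows 1 unpaired base on the 3′ side of the upper stem, added for Slc11a2, occurred in 62 transcripts (0.105%) and 34 genes (0.155%). The elements before the coding sequence lay at chr19:9982733-9982759 (plus strand) in Fth1, chr7:45459780-45459806 (minus strand) in Ftl1 and chr1:45925466-45925492 (minus strand) in Slc40a1. Tfrc held 4 in its last exon, at chr16:32631220-32631246, chr16:32631599-32631625, chr16:32631664-32631690 and chr16:32631711-32631737, all on the plus strand and after the coding sequence. The element of Slc11a2 lay after the coding sequence at chr15:100395153-100395180 (minus strand), in the transcript model Slc11a2-205 only.
Fth1: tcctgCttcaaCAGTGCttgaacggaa
Ftl1: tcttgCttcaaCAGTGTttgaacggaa
Slc40a1: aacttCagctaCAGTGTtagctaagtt
Tfrc, the first: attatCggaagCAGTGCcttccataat
Tfrc, the second: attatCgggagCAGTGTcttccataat
Tfrc, the third: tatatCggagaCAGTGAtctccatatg
Tfrc, the fourth: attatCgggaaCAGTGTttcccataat
Slc11a2: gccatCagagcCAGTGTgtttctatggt
The remaining 4 genes, Hmox1, Slc11a1, Ireb2 and Ncoa4, had no match in their transcripts. No match says only that these letters are not there.

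Gene counts are sums over the distinct exon entries of each gene. In mega-counts, the depth of WT libraries was 45.2 to 82.1 in control medium and 41.3 to 85.8 in CM, and that of KO libraries 41.8 to 54.4 and 40.2 to 61.5. WT libraries 3 and 4 of both media were the deepest (80.4 to 85.8) and stand apart from the other 10, also in several of the genes below, so where a call of the fit changes between WT libraries 1 and 2 alone and WT libraries 3 and 4 alone, both values are given beside the result. The label was checked on Ezh2: 2 of its exons, picked after their values were seen, had 81.1 to 145.2% of the count per base of its other exons in WT and 1.8 to 28% in KO. Of 8 macrophage genes (Adgre1, Csf1r, Cd68, Itgam, Mertk, Fcgr1, Lyz2, Cd14) none was at 0, and their CPM summed to 29400 to 35800 in WT and 19200 to 22000 in KO. Lyz2, the gene at whose locus the Cre sits, was the only 1 of the 8 called between genotypes.

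Levels are counts per mega-count of the TMM-scaled library total (CPM), and per kilobase of summed exon length where genes are compared with each other. The ferritin chains led by far. In WT in control medium Ftl1 had 7250 CPM per kb and Fth1 6940, with overlapping libraries, and both together took 1.68 to 2.25% of all counts over the 14 libraries. The counts and the length of 1849 bases of Fth1 hold 1 exon in 2 nested entries, of 338 and 616 bases. They also hold an entry of 291 bases with a mean of 0.446 CPM in this group. Which of the 2 chains led per base is therefore not settled. Hmox1 followed at 142 CPM per kb, Ncoa4 at 131 and Slc11a1 at 122, each overlapping its neighbor in the order. Slc40a1 stood at 39.7, Ireb2 at 14.2, Slc11a2 at 10.4 and Tfrc lowest at 3.32 CPM per kb, and these did not overlap. By this measure the order was the same in WT in CM and in KO in CM. In KO in control medium Slc11a1 and Ncoa4 changed places, with overlapping libraries.

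**Figure D1:**
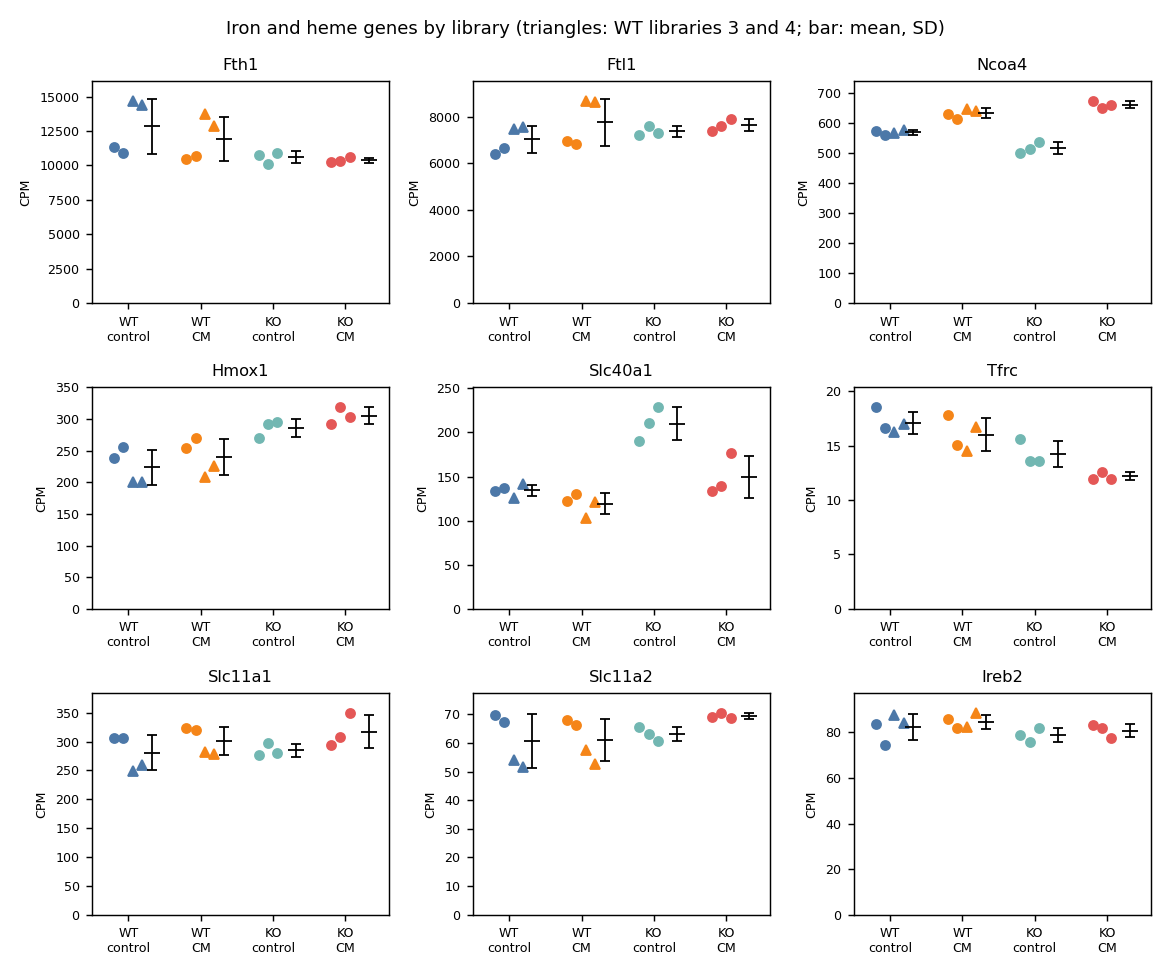
Level in CPM (vertical axes from 0) of the 9 genes in each of the 14 libraries by group, with WT libraries 3 and 4 as triangles and the mean and SD beside each group. Slc40a1 was high in the 3 KO libraries in control medium (191 to 229 CPM), and Fth1 was higher in the triangles (12867 to 14678 CPM) than in the other 10 libraries.

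Changes are log2 fold changes ± SE from edgeR's quasi-likelihood test over 13311 genes, with Benjamini-Hochberg adjusted p, and a gene is called below 0.05. CM in WT called 1 of the 9 genes, Ncoa4, against 37.3% of all genes (19.3% higher, 18% lower). CM in KO called 2 of 9, Ncoa4 and Slc40a1, against 38.1% (20% higher, 18.2% lower). The KO in control medium called 2 of 9, Slc40a1 and Hmox1, against 5.32% (2.82% higher, 2.5% lower), and the KO in CM called 1 of 9, Tfrc, against 4.59% (3.1% higher, 1.49% lower). The median change of the 9 genes was 0.04, 0.05, 0.02 and 0.06 in these comparisons, beside -0.01, -0.01, 0 and 0 for all genes. Each group enters 2 of these comparisons, so they are not independent.

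**Figure D2:**
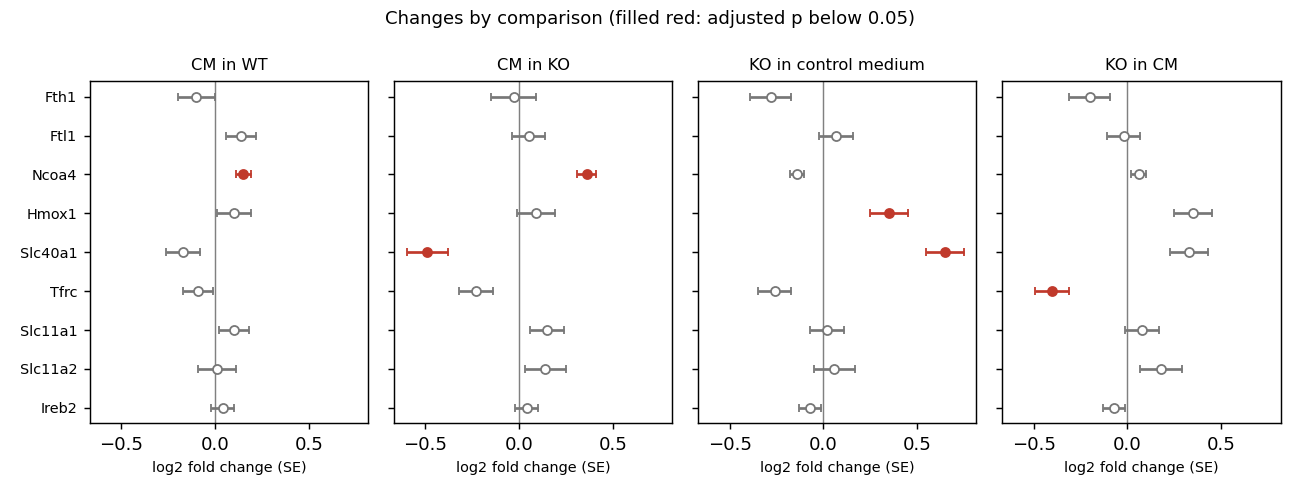
Log2 fold change with its SE (horizontal axis) of the 9 genes in each of the 4 comparisons, filled red where the adjusted p was below 0.05. The largest changes were those of Slc40a1, 0.65 for the KO in control medium and -0.49 for CM in KO.

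Slc40a1, the iron exporter, was higher in KO than in WT macrophages in control medium and fell in KO when CM was added. WT in control medium had 133, 137, 125.7 and 141 CPM, and KO in control medium had 191, 211 and 229 CPM. All 3 KO libraries lay above all 4 WT libraries. KO stood 1.56-fold higher, a log2 change of 0.65 ± 0.10 (adjusted p = 0.00201), which all 27 alternative analyses also called, at 0.58 to 0.71. In CM, KO had 133, 139 and 177 CPM and WT had 123, 130, 103 and 121 CPM. The lowest KO library in CM was still above the highest WT library, but the change of 0.33 ± 0.10 missed the threshold (adjusted p = 0.0721). It was 0.42 (adjusted p = 0.0087) against WT libraries 3 and 4 and 0.25 (adjusted p = 0.204) against WT libraries 1 and 2. DESeq2 called it at 0.33 (adjusted p = 0.0274) and limma-voom at 0.30 (adjusted p = 0.0486), and without KO CM library 3 it was 0.19 (adjusted p = 0.313). The KO in CM lay below the KO in control medium in every library, where it fell by 28.7%, a log2 change of -0.49 ± 0.11 (adjusted p = 0.00175), called in all 25 alternatives at -0.62 to -0.41. In WT the same comparison gave -0.17 ± 0.09 (adjusted p = 0.158). With the replicate numbers as a block it gave -0.18 (adjusted p = 0.00417). Same-numbered WT libraries correlated at 0.33 to 0.47 across media. WT 1 with 2 and 3 with 4 did so at 0.31 to 0.46, so a pairing by number was not shown.

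The exons of Slc40a1 moved together. All 8 of its exon entries were above WT in every KO library in control medium, at log2 ratios of 0.53 to 0.93. Against WT libraries 1 and 2 alone the 8 ratios were 0.55 to 0.84, and against libraries 3 and 4 alone 0.45 to 1.27, with entries 3 to 5 the highest. With CM all 8 entries had a lower mean in KO, and in 7 of them the libraries did not overlap. The test of whether the genotypes answered CM differently gave -0.32 ± 0.14 (unadjusted p = 0.0394, adjusted p = 0.602), and with the replicate block -0.32 (adjusted p = 0.0368). That block also ties KO libraries by number. Their deviations correlated at 0, -0.04 and 0.05, so the numbers do not pair them. Of 10 erythroid genes found in the table, the sum was 0.217 to 0.44 CPM in WT and 0.929 to 1.31 CPM in KO in control medium, with Hbb-bs and Tfr2 among those at 0 in the latter. Epor, the erythropoietin receptor, stood at 0.756 ± 0.11 CPM there, and the part of this list in the Slc40a1 difference was not tested.

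Ncoa4, the receptor that carries ferritin to autophagy, rose with CM in both genotypes. WT had 574, 559, 566 and 577 CPM in control medium and 631, 612, 648 and 641 CPM in CM. KO had 499, 513 and 537 CPM in control medium and 673, 649 and 661 CPM in CM. Neither genotype's media overlapped. The rise was 11.2% in WT (0.15 ± 0.04, adjusted p = 0.00837) and 28% in KO (0.36 ± 0.05, adjusted p = 2.49e-05). The KO call held in all 25 alternatives at 0.25 to 0.39. The WT call was lost with library totals alone as the scale (0.07, adjusted p = 0.184) and with WT libraries 1 and 2 only (0.13, adjusted p = 0.072), and held with libraries 3 and 4 only (0.18, adjusted p = 0.00983).

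In control medium all 3 KO libraries lay below the 4 WT libraries for Ncoa4, at -0.14 ± 0.04 (adjusted p = 0.0776), and in CM all 3 lay above them, at 0.06 ± 0.04 (adjusted p = 0.414). Neither was called. In control medium the KO value was -0.13 (adjusted p = 0.157) against WT libraries 1 and 2 and -0.15 (adjusted p = 0.0169) against libraries 3 and 4, and DESeq2 (-0.14, adjusted p = 0.00606), limma-voom (-0.15, adjusted p = 0.00681) and the sum of all exon entries (-0.17, adjusted p = 0.0471) called it. The difference of the CM responses was 0.20 ± 0.06 (unadjusted p = 0.00607, adjusted p = 0.396). Of the 13 exon entries of Ncoa4, 9 were higher in every KO library in CM than in control medium, and 3 were in WT.

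**Figure D3:**
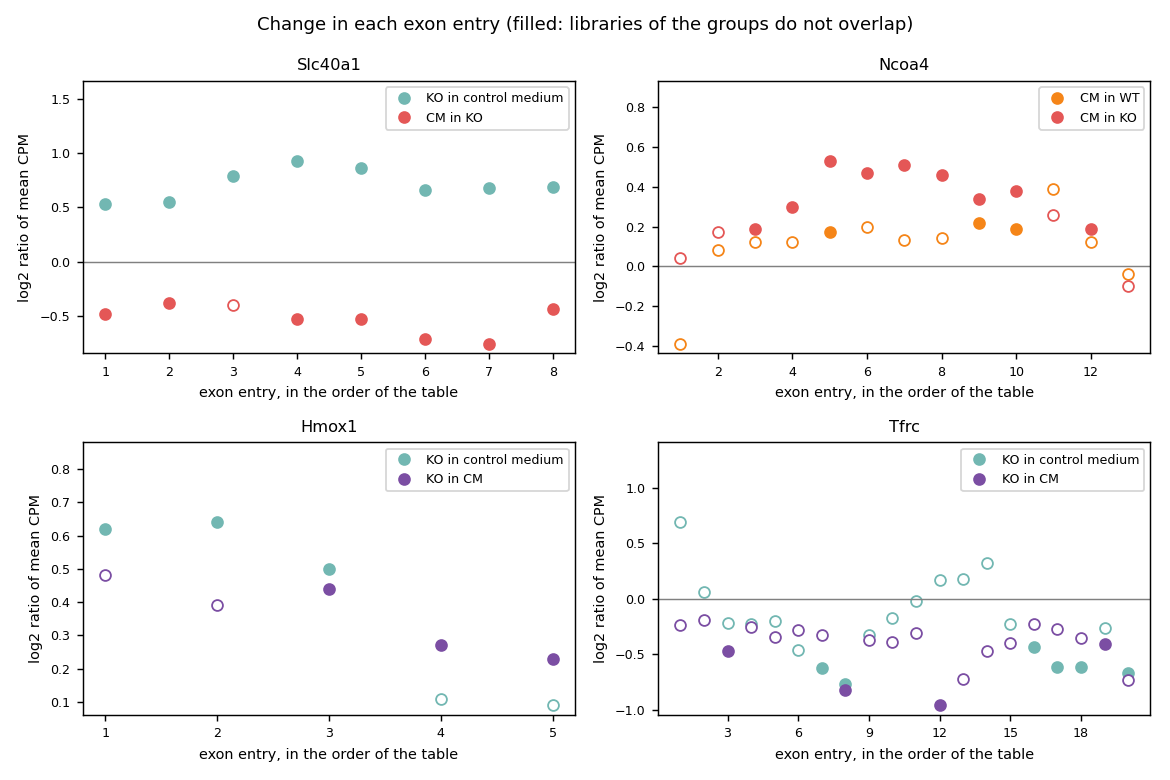
Log2 ratio of mean CPM (vertical axes) of each exon entry in table order, for Slc40a1, Ncoa4, Hmox1 and Tfrc in the comparisons named in each panel, filled where the libraries of the compared groups do not overlap. All 8 entries of Slc40a1 lie above 0 for the KO in control medium and below 0 for CM in KO, while the 5 of Hmox1 read 0.62, 0.64, 0.50, 0.11 and 0.09 for the KO in control medium, where WT libraries 3 and 4 are low in the first 3 entries.

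Neither ferritin chain was called by the edgeR fit over all libraries in any of the 4 comparisons. For the KO in control medium limma-voom called Fth1 lower. A term for WT libraries 3 and 4 called Ftl1 higher there (0.21, adjusted p = 0.0035). Both chains were called for the KO with part of the WT libraries. Fth1 had 11331, 10915, 14678 and 14431 CPM in WT in control medium and 10493, 10718, 13743 and 12867 CPM in WT in CM. KO had 10796, 10098 and 10878 CPM in control medium and 10270, 10301 and 10600 CPM in CM. The high WT values were those of libraries 3 and 4, and the other 10 libraries spanned 10098 to 11331 CPM. For the KO in control medium Fth1 gave -0.28 ± 0.11 (adjusted p = 0.132), which was -0.07 (adjusted p = 0.393) against WT libraries 1 and 2 and -0.46 (adjusted p = 2.06e-06) against libraries 3 and 4. In CM these were -0.02 (adjusted p = 0.823) and -0.36 (adjusted p = 2.65e-05). Ftl1 had 6393, 6669, 7478 and 7583 CPM in WT in control medium, 6957, 6815, 8675 and 8629 CPM in WT in CM, 7209, 7627 and 7288 CPM in KO in control medium and 7415, 7595 and 7910 CPM in KO in CM. Again WT libraries 3 and 4 were the highest of their groups. Ftl1 for the KO in CM was higher against WT libraries 1 and 2 (0.16, adjusted p = 0.0485) and lower against libraries 3 and 4 (-0.18, adjusted p = 0.00289), so its sign turned with the WT libraries used. In control medium it was 0.18 (adjusted p = 0.0252) and -0.03 (adjusted p = 0.603). For CM in WT, libraries 3 and 4 alone gave -0.13 for Fth1 (adjusted p = 0.0446) and 0.20 for Ftl1 (adjusted p = 0.00188), and libraries 1 and 2 alone -0.07 (adjusted p = 0.226) and 0.07 (adjusted p = 0.244). With the replicate block, CM in WT gave -0.10 for Fth1 (adjusted p = 0.00897) and 0.14 for Ftl1 (adjusted p = 0.0026), where the fit without it gave -0.10 ± 0.10 (adjusted p = 0.463) and 0.14 ± 0.08 (adjusted p = 0.179). That block called 5 of the 9 genes for CM in WT, 3 higher and 2 lower, beside 6575 of all 13311 genes, 3378 higher and 3197 lower. Both ferritin genes have processed copies in the mouse genome, and how reads shared with them were counted is not given, so their counts are uncertain to that extent.

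The chains can be compared within a library, where scaling cancels but uneven counts over exons do not. In Ftl1 entry 2, WT control libraries 3 and 4 had 70121 and 77175 counts beside 71417 and 83692 in libraries 1 and 2. In entry 4, libraries 3 and 4 had 236876 and 243623 beside 80899 and 93410. For the KO in control medium, Ftl1 entries 1 to 4 had log2 ratios of -0.01, 0.45, 0.19 and -0.23. Fth1 entries 1, 2 and 6 had -0.15, and entries 3 and 4 had -0.40 and -0.43. The part of this in the ratios was not tested. Fth1 counts include nested entries, so the groups are compared and the level of the ratio is not read. The log2 ratio of Fth1 to Ftl1 counts was 0.83, 0.71, 0.97 and 0.93 in WT in control medium and 0.59, 0.65, 0.66 and 0.58 in WT in CM, so every library in CM lay below every library in control medium. The difference was -0.24 (exact two-sided permutation test, p = 0.0286, the smallest that 4 against 4 libraries can give, adjusted p = 0.0857 over 12 tests). In KO the ratio was 0.58, 0.40 and 0.58 in control medium and 0.47, 0.44 and 0.42 in CM, which overlap. KO lay below WT in CM in every library, by -0.18 (exact permutation p = 0.0286, adjusted p = 0.0857). In control medium the difference was -0.34 (exact permutation p = 0.0571, adjusted p = 0.137), also with no overlap. None of the 12 ratio tests passed after adjustment.

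**Figure D4:**
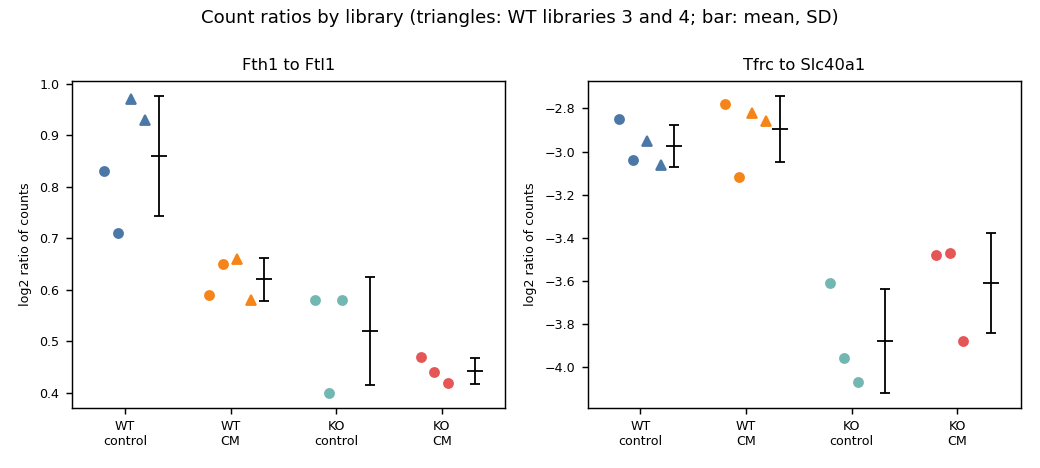
Log2 ratio of Fth1 to Ftl1 counts (left) and of Tfrc to Slc40a1 counts (right) in each library by group, with the mean and SD beside the points and WT libraries 3 and 4 as triangles. The ratio of Tfrc to Slc40a1 is lower in all 6 KO libraries (-4.07 to -3.47) than in the 8 WT libraries (-3.12 to -2.78).

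Hmox1, the enzyme that opens heme, was higher in KO. WT had 238, 255, 200.2 and 201 CPM in control medium and 254, 271, 209 and 226 CPM in CM, with libraries 3 and 4 the lowest. KO had 269, 292 and 295 CPM in control medium and 292, 319 and 304 CPM in CM. KO and WT did not overlap in either medium. In control medium the change was 0.35 ± 0.10 (adjusted p = 0.0445), and in CM it was 0.35 ± 0.10 (adjusted p = 0.0527), just above the threshold. Against WT libraries 1 and 2 alone these were 0.22 (adjusted p = 0.0547) and 0.22 (adjusted p = 0.0502), and against libraries 3 and 4 alone 0.51 (adjusted p = 7.37e-06) and 0.49 (adjusted p = 1.76e-05).

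The Hmox1 call in control medium was also lost when WT control library 3 or 4, WT CM library 4 or any of the 6 KO libraries was left out (adjusted p of 0.0517 to 0.16, at 0.30 to 0.39). With the most-counted exon alone it was 0.18 (adjusted p = 0.0926). The entries were uneven: the first 3 of 5 were 0.50 to 0.64 higher in KO in control medium with no overlap, and the other two were 0.11 and 0.09 higher with overlap. This lay in WT libraries 3 and 4, which were low in the first 3 entries. The first entry had 28.4 and 30.6 CPM in WT control libraries 1 and 2, 15.5 and 15.4 CPM in libraries 3 and 4, and a mean of 34.4 CPM in KO. Against WT libraries 1 and 2 the 5 entries were 0.22, 0.27, 0.25, 0.18 and 0.16 higher in KO, and against libraries 3 and 4 they were 1.16, 1.14, 0.81, 0.04 and 0.03 higher. CM changed Hmox1 by 0.10 ± 0.09 in WT (adjusted p = 0.407), or 0.10 with the replicate block (adjusted p = 0.0202), and by 0.09 ± 0.10 in KO (adjusted p = 0.511).

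Tfrc, which brings in transferrin iron, was the least abundant of the 9, with 1784 to 4467 counts per group. WT had 18.54, 16.59, 16.25 and 16.98 CPM in control medium and 17.82, 15.02, 14.51 and 16.71 CPM in CM. KO had 15.64, 13.59 and 13.58 CPM in control medium and 11.95, 12.59 and 11.97 CPM in CM. In each medium all KO libraries lay below all WT libraries. In CM the KO stood 24.0% below WT, a log2 difference of -0.40 ± 0.09 (adjusted p = 0.0181). That call was lost without WT CM library 4 (adjusted p = 0.0623), without KO CM library 1 (0.0709) or 3 (0.0865), and with the most-counted exon alone (-0.33, adjusted p = 0.194). All 20 exon entries of Tfrc had a lower mean in KO in CM, and in 4 of them the libraries did not overlap. In control medium the change was -0.26 ± 0.09 (adjusted p = 0.0879). There DESeq2, limma-voom and a term for WT libraries 3 and 4 called it (adjusted p of 0.0365 to 0.0474). CM in KO gave -0.23 ± 0.09 (adjusted p = 0.0632), with no overlap between media. Of its 25 alternatives 6 called it, and 0 of the 14 among them that left out 1 library did. The adjusted p went down to 0.00977 with library totals alone (-0.34), and without KO control library 1 the change was -0.16 (adjusted p = 0.254). CM in WT gave -0.09 ± 0.08 (adjusted p = 0.385).

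Dividing cells express Tfrc strongly, so a list of 12 cycling genes was set beside it. Their CPM summed to 292 to 358 in WT and 347 to 395 in KO in control medium, and to 483 to 550 in WT and 678 to 772 in KO in CM. The sum was thus highest in the group in which Tfrc was lowest, and the part of cycling in the Tfrc values was not tested. The exon with the 4 matches to the pattern of the iron-responsive element had 28.5 to 50.0% of the count per base of the other Tfrc exons. Its share was 38.0 ± 2.9% in WT (n = 4) and 38.6 ± 10.4% in KO (n = 3) in control medium and 33.0 ± 3.0% and 32.4 ± 1.3% in CM.

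The balance of the importer to the exporter, the log2 ratio of Tfrc to Slc40a1 counts, was -2.85, -3.04, -2.95 and -3.06 in WT and -3.61, -3.96 and -4.07 in KO in control medium. In CM it was -2.78, -3.12, -2.82 and -2.86 in WT and -3.48, -3.47 and -3.88 in KO. No KO library overlapped a WT library. The differences were -0.90 in control medium and -0.72 in CM (exact permutation p = 0.0286 each, the smallest possible with 3 against 4, adjusted p = 0.0857). The ratio of Tfrc to Fth1 differed by -0.20 to 0.00, with adjusted p of 0.20 or more from the exact test.

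Over all libraries Slc11a1, Slc11a2 and Ireb2 were not called in any comparison. Slc11a1, the phagosome metal transporter, spanned 250 to 306 CPM in WT and 278 to 298 CPM in KO in control medium, and 278 to 323 and 295 to 349 CPM in CM. Slc11a2, the endosome transporter, spanned 51.5 to 69.8 CPM in WT and 60.7 to 65.5 CPM in KO in control medium, and 52.5 to 67.96 and 68.7 to 70.4 CPM in CM. The 3 KO libraries in CM were above the 3 KO libraries in control medium and the 4 WT libraries in CM, at 0.18 ± 0.11 against WT (adjusted p = 0.306). WT libraries 3 and 4 were the lowest of their groups for both genes. For Slc11a2 they had 53.96 and 51.47 CPM in control medium and 57.68 and 52.53 CPM in CM, where libraries 1 and 2 had 69.77, 67.41, 67.96 and 66.37 CPM. Against libraries 3 and 4 alone Slc11a2 was called higher in KO in control medium (0.26, adjusted p = 0.00233) and in CM (0.33, adjusted p = 0.000547), and against libraries 1 and 2 alone it was -0.12 (adjusted p = 0.279) and 0.05 (adjusted p = 0.688). Slc11a1 was likewise called against libraries 3 and 4 (0.17, adjusted p = 0.0495, and 0.18, adjusted p = 0.0383) and not against libraries 1 and 2 (-0.10, adjusted p = 0.457, and -0.01, adjusted p = 0.954). For CM in KO, the term for WT libraries 3 and 4 called Slc11a1 (0.15, adjusted p = 0.0202) and Slc11a2 (0.14, adjusted p = 0.0285). Ireb2 spanned 74.3 to 88.4 CPM over all 14 libraries, and its changes of -0.07 to 0.04 had approximate 95% intervals within -0.18 to 0.16.

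Slc11a2 mRNA ends in 1 of 2 ways, with or without the iron-responsive element. The last exon of the model Slc11a2-205 (chr15:100392563-100395323) holds it, and that of Slc11a2-201 (chr15:100387898-100389161) does not. The table gives no coordinates, so its entries were matched to these exons by their place among the entries and not by exact length, and counts of a shared coding stretch of 54 bases were subtracted from the first. Per base, the end with the element took 12.8, 11, 11.9 and 11.8% of both ends in WT in control medium and 12.8, 8.56, 8.47 and 9.2% in WT in CM. In KO it took 9.37, 10.8 and 11.8% in control medium and 9.96, 9.88 and 10.1% in CM. The groups overlapped apart from WT in control medium against KO in CM. Of the 2 ends, the end without the element thus held most of the counts per base in all 14 libraries. Both lay far below the coding exons per base. Group means were 2.1 to 2.9% of the coding exons for the end with the element and 18.7 to 21.8% for the other. Why was not tested, so these shares are of counts and not of mRNA molecules.

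In the test of whether the CM response differed by genotype, edgeR called 0 of the 9 genes and 0 of 13311 genes (0%). At an unadjusted p below 0.05 it held 1050 genes, among them Slc40a1 and Ncoa4. DESeq2 called 80 genes, with Ncoa4 among them at 0.21 (adjusted p = 0.0421), and limma-voom called 27 and none of the 9.

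Other genes of the pathway were counted in 7 lists, of which 70 genes were tested. CM in WT called 15 higher and 8 lower (32.9%), CM in KO 13 higher and 12 lower (35.7%), the KO in control medium 3 higher and 1 lower (5.71%) and the KO in CM 3 higher and 0 lower (4.29%), shares close to those of all genes. Genes are named by the smallest p in each list.

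Among regulators, 2 of 9 rose with CM in each genotype. Fbxl5, the iron-sensing ligase subunit that marks IRP2 for degradation, went from 48.3 ± 4.2 to 91.4 ± 6.7 CPM in WT (0.92 ± 0.07, adjusted p = 2.45e-08) and from 44.0 ± 1.2 to 93.7 ± 2.9 CPM in KO (1.09 ± 0.08, adjusted p = 2.31e-08). Aco1, which encodes IRP1, rose by 0.25 ± 0.05 in WT and 0.19 ± 0.05 in KO. Ireb2, the target of Fbxl5 at the protein level, stood at 84.6 CPM in WT in CM against 82.4 in control medium.

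Among export genes, 2 of 4 rose and 1 fell with CM in each genotype. Cp, the ferroxidase ceruloplasmin that works beside ferroportin, went from 17.7 ± 1.8 to 133 ± 27 CPM in WT (2.91 ± 0.12, adjusted p = 6.41e-11) and from 20.8 ± 1.8 to 163 ± 3.6 CPM in KO (2.98 ± 0.14, adjusted p = 2.78e-10). App, whose protein is described to stabilize ferroportin, rose by 0.91 ± 0.05 and 0.85 ± 0.06. Hfe, the gene of hereditary haemochromatosis, fell by 0.32 on the log2 scale in WT and by 0.31 in KO.

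Of 8 uptake genes, CM called 2 higher and 2 lower in WT and 1 higher and 3 lower in KO. Among the 3 lower in KO, Lcn2 (0.0254 CPM in KO in CM) and Ltf (0.522 CPM in control medium and 0.0718 in CM) lay near the floor. Trf, transferrin itself, fell from 749 ± 30 to 456 ± 19 CPM in WT (-0.72 ± 0.06) and from 830 ± 53 to 427 ± 29 CPM in KO (-0.96 ± 0.07). Slc39a14, the zinc and iron importer ZIP14, rose by 0.89 ± 0.10 in WT and 0.93 ± 0.12 in KO.

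Of 13 genes of heme and haemoglobin handling, 2 rose and 5 fell with CM in WT, and 2 rose and 6 fell in KO. Hp, haptoglobin, which binds free haemoglobin, went from 3.27 ± 0.81 to 39.9 ± 3.3 CPM in WT (3.63 ± 0.17) and from 2.51 ± 0.61 to 35.4 ± 3.0 CPM in KO (3.81 ± 0.20). Spic, the factor that specifies red pulp macrophages, fell from 1.23 ± 0.04 to 0.322 ± 0.098 CPM in WT and from 1.58 ± 0.14 to 0.395 ± 0.22 CPM in KO. Slc48a1, which moves heme out of the phagolysosome, fell by 0.34 on the log2 scale in WT and by 0.37 in KO. Flvcr1, the heme exporter, fell by 0.35 and by 0.22, and in control medium it was 0.28 lower in KO on the log2 scale (-0.28 ± 0.05, adjusted p = 0.00981). Abcg2, a transporter of porphyrins, was higher in KO by 0.45 ± 0.09 in control medium and 0.58 ± 0.09 in CM.

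**Figure D5:**
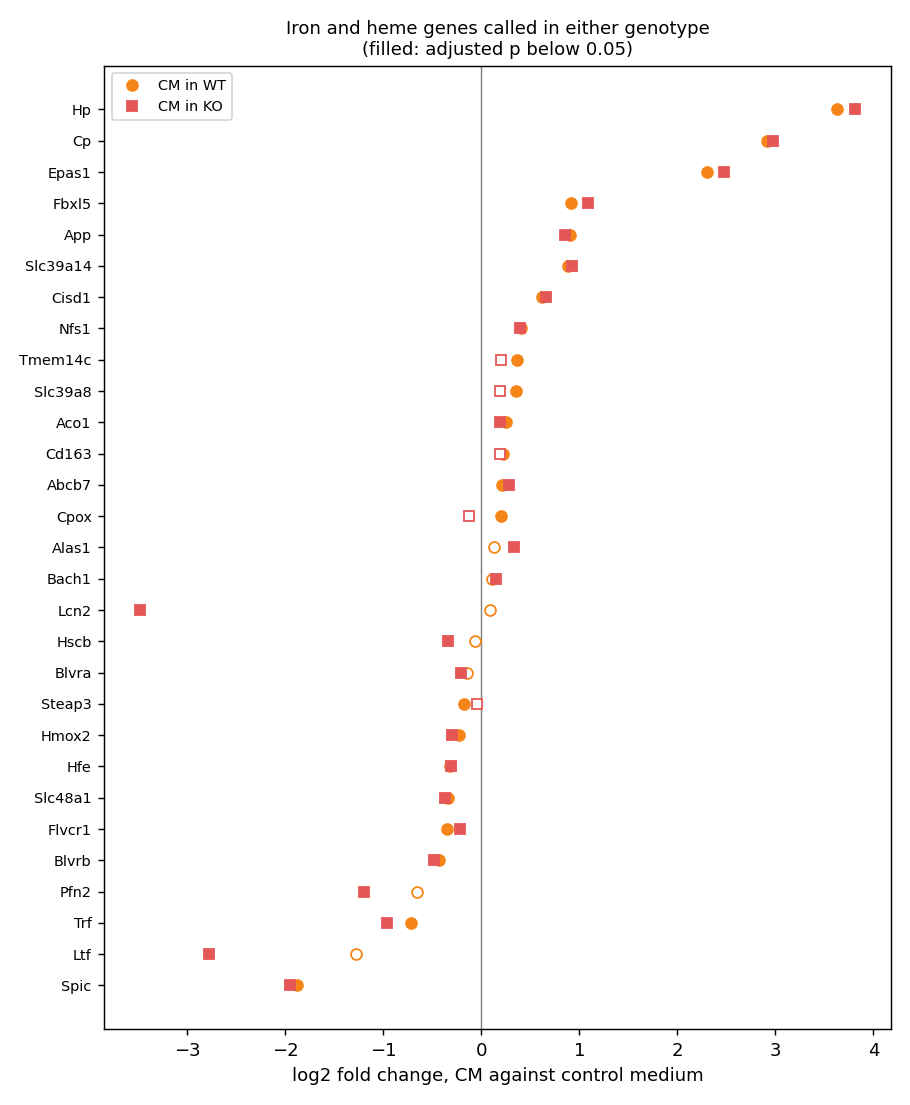
Log2 fold change of CM against control medium in WT (circles) and KO (squares) for 29 pathway genes called in at least 1 genotype, filled where called. Of them 17 were called in both, and Hp, Cp and Epas1 lie furthest to the right.

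Of 11 heme synthesis genes 3 rose with CM in WT and 2 in KO, among them Alas1, the first enzyme of the chain, in KO (0.33 ± 0.06, adjusted p = 0.000374). Alad, its second enzyme, was higher in KO by 0.60 ± 0.13 in control medium and 0.76 ± 0.13 in CM (adjusted p = 0.0171 and 0.00453). Of 20 mitochondrial genes, 3 rose in WT, and 3 rose and 1 fell in KO, among them Cisd1 (0.62 ± 0.10 and 0.66 ± 0.11) and Nfs1 (0.41 ± 0.09 and 0.40 ± 0.11). Of 5 other mRNAs described with the element, Epas1, which encodes HIF-2α, went from 2.33 ± 0.32 to 11.5 ± 1.6 CPM in WT and from 2.10 ± 0.15 to 11.7 ± 1.1 CPM in KO with CM. Cdc42bpa was 1.01 ± 0.09 higher in KO in control medium and 1.05 ± 0.09 in CM.

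Of 5 monocyte genes 3 rose with CM in each genotype, and their CPM summed to 40.5 to 54 in control medium and 188 to 286 in CM. Of 9 hepatoma genes the sum was 4.33 to 7.43 CPM over all libraries, with Alb, Serpina1a, Fgb and Ahsg at 0 in every group. The part of these and of the cycling genes in the changes with CM was not tested. In bulk RNA fewer cells of a type and less RNA per cell cannot be told apart.

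Genes whose log2 CPM was most like each member over the 14 libraries were read off as a description, among genes with a mean of at least 4 CPM. For Slc40a1 they were Dtx4 (r = 0.927), Id3 (0.911) and Plscr3 (0.905), and for Ncoa4 Klf9 (0.962), Ppfia1 (0.96) and Diaph1 (0.959). For Hmox1 they were Amdhd2 (0.959), Tmem9 (0.958) and Rpl3 (0.951), and for Tfrc Dennd11 (0.905), Gramd1b (0.896) and Atl3 (0.89). Fth1 was nearest to Ptp4a2 (0.978), Rab10 (0.977) and Dek (0.976). For the other 4 members the nearest gene had r of 0.885 to 0.957. The libraries share genotype, medium and, for WT 3 and 4, their own pattern, and each of these enters such a correlation.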

How the data were processed

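The authors deposited raw counts per exon entry, made with HISAT2 on mm10 per the submitters' processing notes. The version, counting tool, annotation and strand setting are not given in the sources used here. Of 427386 entries, 196941 repeated another of the same gene (48.6% of all counts) and were removed, and the 230445 distinct ones were summed per gene. Nested exons and fragments over several exons are still counted more than once. The members and lists were chosen with earlier results of these data known.

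Under R 4.3.3, a single edgeR 4.0.16 fit (quasi-likelihood, TMM, filterByExpr with a minimum count of 10 and a minimum total of 15) covered 14 libraries in 4 groups. Alternatives used DESeq2 1.42.0, limma 3.58.1, other scales, filters, exons and libraries, and a replicate block. Deviations of same-numbered WT libraries correlated at 0.33, 0.35, 0.47 and 0.46, above the limit of 0.1 set for pairing. WT 1 with 2 and 3 with 4 correlated about as much (0.31 to 0.46), so a pairing by number was not shown. Deviations of same-numbered KO libraries correlated at 0, -0.04 and 0.05 and do not pair. Named genes are the 9 members, Ezh2, 3 genes per list and comparison with the smallest p, and the 3 most correlated per member. The fit was tested on simulated counts. Exon ratios against WT libraries 1 and 2 or 3 and 4 alone were added after seeing the data. Some genes of the lists are not reported here.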

Additional observations from a re-analysis of the deposited data

Results flagged for a closer look

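In a check of 26 values (9 levels, 3 ratios and the Slc11a2 ends in each WT group) for a library far from the others of its group, 1 was found. WT library 1 in CM had 12.76% of the counts per base of both Slc11a2 ends on the end with the iron-responsive element, and the other 3 libraries of that group had 8.47 to 9.2%. About 1 in 20 such checks is met by chance.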

How the results depend on the processing

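For CM in WT, the number of the 9 genes called was 1 and became 5 with the replicate block, 0 with WT libraries 1 and 2 only, and 3 with WT libraries 3 and 4 only or with a term for them. Of all genes, 4960 of 13311 were called, against 6575 with the block and 6562 with the term. It was 4348 of 13345 with WT 1 and 2 only and 4889 of 13485 with WT 3 and 4 only. For CM in KO the number of the 9 genes was 2 and became 5 with the replicate block, whose numbers do not pair KO libraries, and 5 with the term. Of all 13311 genes, 5077 were called, against 6674 with the block and 6692 with the term. For the KO in control medium the number of the 9 genes was 2 and became 4 by DESeq2, 5 by limma-voom and 4 with the term. It was 1 with only the compared groups or the most-counted exon and 6 with WT 3 and 4 only. For the KO in CM it was 1 and became 2 with DESeq2 size factors, library totals, no filter, the replicate block, WT 1 and 2 only or the term, 3 by DESeq2 and by limma-voom, and 7 with WT 3 and 4 only. For the interaction it was 0 and became 1 by DESeq2 (Ncoa4) and 1 with the block (Slc40a1), whose numbers do not pair KO libraries.

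Of all 13311 genes, the KO in control medium called 708, against 1469 by DESeq2, 4757 by limma-voom and 1036 with the term. It called 283 of 13030 with only the compared groups, 385 of 12511 with the most-counted exon and 5246 of 13485 with WT 3 and 4 only. The KO in CM called 611, against 1206, 1794 and 4791 by DESeq2, limma-voom and WT 3 and 4 only, and 923 with the term. It called 611 with DESeq2 size factors, 643 with library totals, 502 with no filter, 581 with the block and 478 with WT 1 and 2 only. The interaction called 0, against 80, 27 and 205 by DESeq2, limma-voom and the block, 11 and 54 with WT 1 and 2 or 3 and 4 only, and 164 with the term. The cause of these differences was not tested.

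Leaving out 1 library at a time gave 224 to 1769 genes for the KO in control medium (lowest without KO control 2, highest without WT control 2) and 1 to 3 of the 9, 217 to 721 genes for the KO in CM (lowest without KO CM 3) and 0 to 2 of the 9, and 0 to 2 genes for the interaction. It called Fth1 for the KO in control medium without WT control 2 (-0.35, adjusted p = 0.044). Ftl1 for the KO in CM turned from -0.02 to 0.16 (adjusted p = 0.0485) with WT 1 and 2 only, and was -0.18 (adjusted p = 0.00289) with WT 3 and 4 only.

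Library totals alone moved the median of all genes from -0.01 to -0.12 for CM in KO and to -0.09 for CM in WT. The share of calls that were higher went from 52.4 to 34.9% and from 51.8 to 35.9%, and for the KO in control medium from 53 to 76.9%. Of 1188 single gene values under an alternative, 1112 kept their side of the threshold, 57 newly passed it, 18 lost it and 1 reversed its sign with a call. Values called in neither fit counted as kept even where their sign turned. The interaction of Ireb2, for example, kept its sign in 15 of 26 alternatives, and Ftl1 for the KO in CM in 20 of 27. The replicate block changed the calls named here and beside the results. Tfrc rests on the fewest counts, and intervals cover the spread of 3 or 4 libraries a group.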
